A study of Mus musculus with 4 samples.

Results

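Osteopontin, serglycin and 4 further genes linked to activated phagocytes were followed through every cell type of the mouse dorsal root ganglion (DRG), before and after injury of the sciatic nerve. The genes were Spp1, Srgn, Gpnmb, Lgals3, Cd44 and Cd9, which are 6 of the 33456 genes listed. They were picked by symbol because of their changes with injury in the glial cells of these libraries. Their injury values in satellite glial cells (SGC), myelinating Schwann-like cells and Scn7a glia-like cells are therefore given as a description, with no test. Tests were kept for the levels between cell types and for the effect of injury outside the glia.

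Single cell RNA-seq had given 4 libraries. The control condition, naïve mice, and the injury condition, mice 3 days after crush of the sciatic nerve, had 2 each. All mice were C57BL/6, aged 8 to 12 weeks, and per the methods female, with the cells of several mice pooled in each batch. The sample labels name the L4 ganglion, whereas the methods name L4 and L5. Ganglia were digested with papain and collagenase, sorted for live cells and run on a 3′ droplet system, which tags the captured molecules with unique molecular identifiers (UMIs). Of 6975 barcodes 6095 passed the limits on cells, with between 1076 and 2377 per library, 4293865 to 9139674 UMIs per library and median depths of 2775 to 4845 UMIs per cell. The second library of each condition was the deeper one per cell. The libraries shared between 1 and 6 barcodes per pair.

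Marker genes, none of them one of the 6, placed 5032 barcodes in cell types and left 1063 without one. SGC-like cells (n = 1229) held on average 5.34 of 9 SGC markers, myelinating Schwann-like cells (n = 241) 6.09 of 10, and macrophage-like cells (n = 990) 8.64 of 10. A level (CPM) is the gene's UMIs per 1000000 UMIs of the summed cells of a type in 1 library. A library entered a mean only with 10 or more cells of that type. In such sums, more cells with the transcript and more transcript per cell cannot be told apart, and confidence intervals on shares of cells cover counting error only.

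SGC wrap the cell bodies of sensory neurons, and Schwann cells sheathe the axons. After a nerve injury macrophages of the ganglion and nerve take up debris. Spp1 encodes osteopontin, a secreted matrix phosphoprotein that binds integrins and CD44. Srgn encodes serglycin, the core proteoglycan of secretory granules in blood-derived cells, and also made by endothelium. Lgals3 encodes galectin-3, a lectin of β-galactosides that myeloid cells make in quantity. Gpnmb encodes a transmembrane glycoprotein of melanosomes and lysosomes that is known from lipid-laden macrophages. Cd44 encodes the main receptor for hyaluronan, and Cd9 a tetraspanin that organizes integrins and other membrane proteins.

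On GRCm38 all 6 are annotated as protein-coding genes. Spp1 lies at chr5:104435118-104441050, on the plus strand. Srgn lies at chr10:62493833-62527451 and Cd44 at chr2:102811141-102901665, both on the minus strand. Gpnmb at chr6:49036546-49070929 (plus strand) and Cd9 at chr6:125460266-125494791 (minus strand) share a chromosome. Lgals3 lies at chr14:47367751-47386160, on the plus strand.

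The label of phagocyte genes held for part of the set. Srgn and Lgals3 were at their highest in myeloid-like cells. Spp1 had its highest levels in myelinating Schwann-like and fibroblast-like cells, and Gpnmb was almost unseen in macrophage-like cells and was read mostly in glia. For these last genes the 250 bases before the start of transcription are shown (RefSeq, GRCm38.p6, 5′ to 3′ on the strand of the gene). Capitals mark matches to the 4 short motifs searched. The Spp1 window is chr5:104434861-104435110 and the Gpnmb window chr6:49036268-49036517, both on the plus strand.

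Spp1: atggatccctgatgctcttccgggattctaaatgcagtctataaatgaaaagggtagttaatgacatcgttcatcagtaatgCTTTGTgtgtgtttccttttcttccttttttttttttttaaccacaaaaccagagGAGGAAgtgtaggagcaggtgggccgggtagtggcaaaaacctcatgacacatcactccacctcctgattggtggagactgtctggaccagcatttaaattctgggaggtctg

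Gpnmb: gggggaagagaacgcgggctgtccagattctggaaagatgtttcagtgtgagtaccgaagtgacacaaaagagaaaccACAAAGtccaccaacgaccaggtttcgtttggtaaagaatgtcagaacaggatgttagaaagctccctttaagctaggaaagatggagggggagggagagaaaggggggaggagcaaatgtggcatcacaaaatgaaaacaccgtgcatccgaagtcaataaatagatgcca

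The motifs, searched on both strands, were the AP-1 letters TGANTCA, the SOX letters ACAAAG, the PU.1 letters GAGGAA and the M-box letters CATGTG, and none overlapped another in these windows. Spp1 held a SOX match whose first base lies at -168 from the start and a PU.1 match at -113, and Gpnmb a SOX match at -172. Of all 32851 promoter windows of this length, 16.5% held the SOX letters and 23.3% the PU.1 letters, so that either match is common. No window of the 6 genes held the AP-1 letters, which stand in 6.75% of all windows. A match describes the sequence only.

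The 6 genes were spread differently over the ganglion. Fibroblast-like cells held 60.9% of all Spp1 UMIs and myelinating Schwann-like cells 22.7%, against 6.86% in macrophage-like cells. Macrophage-like cells held 36.1% of the Srgn UMIs, and endothelial-like cells 16.5%. SGC-like cells held 48.0% of the Gpnmb UMIs, 28.0% of those of Cd44 and 37.1% of those of Cd9. For Lgals3, macrophage-like cells held 22.5% and monocyte-like cells 17.9%, although the latter were 1.20% of the cells.

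**Figure D1:**
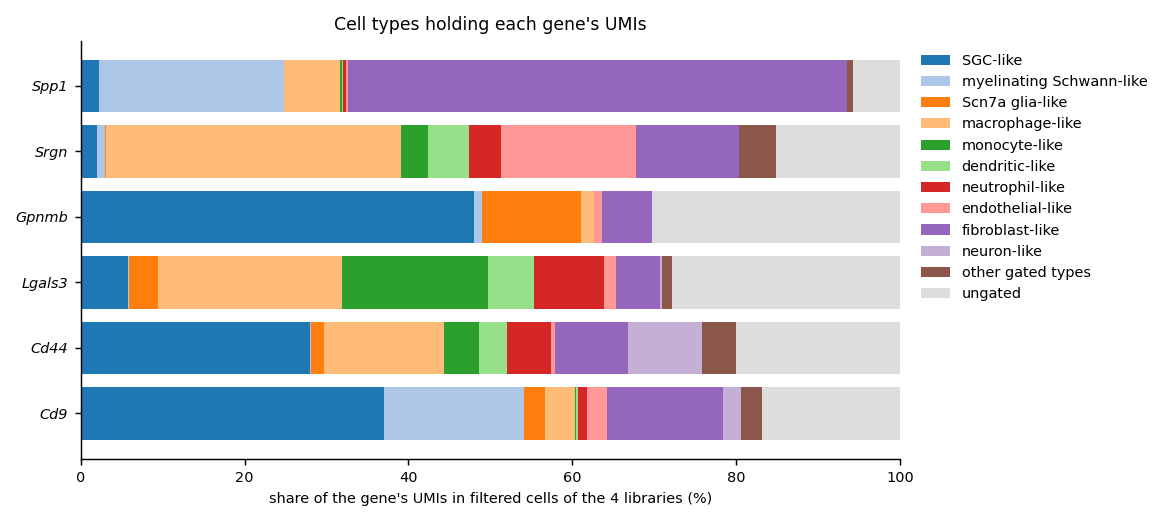
Share of each gene's UMIs (percent, x axis) held by each cell type, with 1 stacked bar per gene (y axis) and all 4 libraries summed; colours give the cell types, and grey the cells without one. Spp1 lies mostly in fibroblast-like and Schwann-like cells, Srgn in macrophage-like and endothelial-like cells, and Gpnmb in glia.

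Osteopontin was split between cell types. In myelinating Schwann-like cells Spp1 measured 793 and 2866 CPM in control libraries 1 and 2 and 3151 and 3382 CPM in injury libraries 1 and 2, with a mean of 2548 CPM ± 1189 (SD, n = 4). In fibroblast-like cells the values were 668, 884, 870 and 765 CPM in the same order (797 ± 101). These neighbours in the order of levels overlapped, through the lower control library of the Schwann-like cells. Macrophage-like cells came next, at 24.0, 57.8, 150 and 75.4 CPM, and did not overlap the fibroblast-like cells. Against the mean of the other types Spp1 was higher in Schwann-like cells by 6.51 on the log2 scale (SE 0.23, adjusted p = 3.62e-28, edgeR quasi-likelihood test over 7028 genes) and in fibroblast-like cells by 4.95 (SE 0.24, adjusted p = 3.55e-23). A gene was called when its adjusted p was under 0.05 and its fold at least 4, that is 2 on the log2 scale. In macrophage-like cells the Spp1 difference of 1.51 (adjusted p = 0.000202) stayed under that fold, and in SGC-like cells it was -0.51 (adjusted p = 0.421). Against all other gated cells of the same library, a comparison chosen after seeing the data, Spp1 was lower in macrophage-like cells by 1.99 and in SGC-like cells by 3.97 on the log2 scale (adjusted p = 1.28e-07, edgeR), where 16.6% of all genes were called lower.

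Within a type Spp1 was concentrated in few cells. In Schwann-like cells 11 of 241 cells held at least 50% of the UMIs, and in fibroblast-like cells 55 of 1241. A single fibroblast-like barcode of control library 2 held 925 of that library's 1304 fibroblast Spp1 UMIs, which is 70.9%. The next highest barcode held 57. The same barcode carried 91 UMIs of Mmp13, a collagenase, 22 of Bglap2 and 14 of Bglap, which encode osteocalcin, and 6 of the fibroblast markers, and it was not marked as a doublet. Mmp13 was seen in 4 fibroblast-like cells in all. Without this barcode the Spp1 level of control library 2 was 257 CPM, and the excess over the other types was 4.60 on the log2 scale (adjusted p = 2.85e-20, edgeR).

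**Figure D2:**
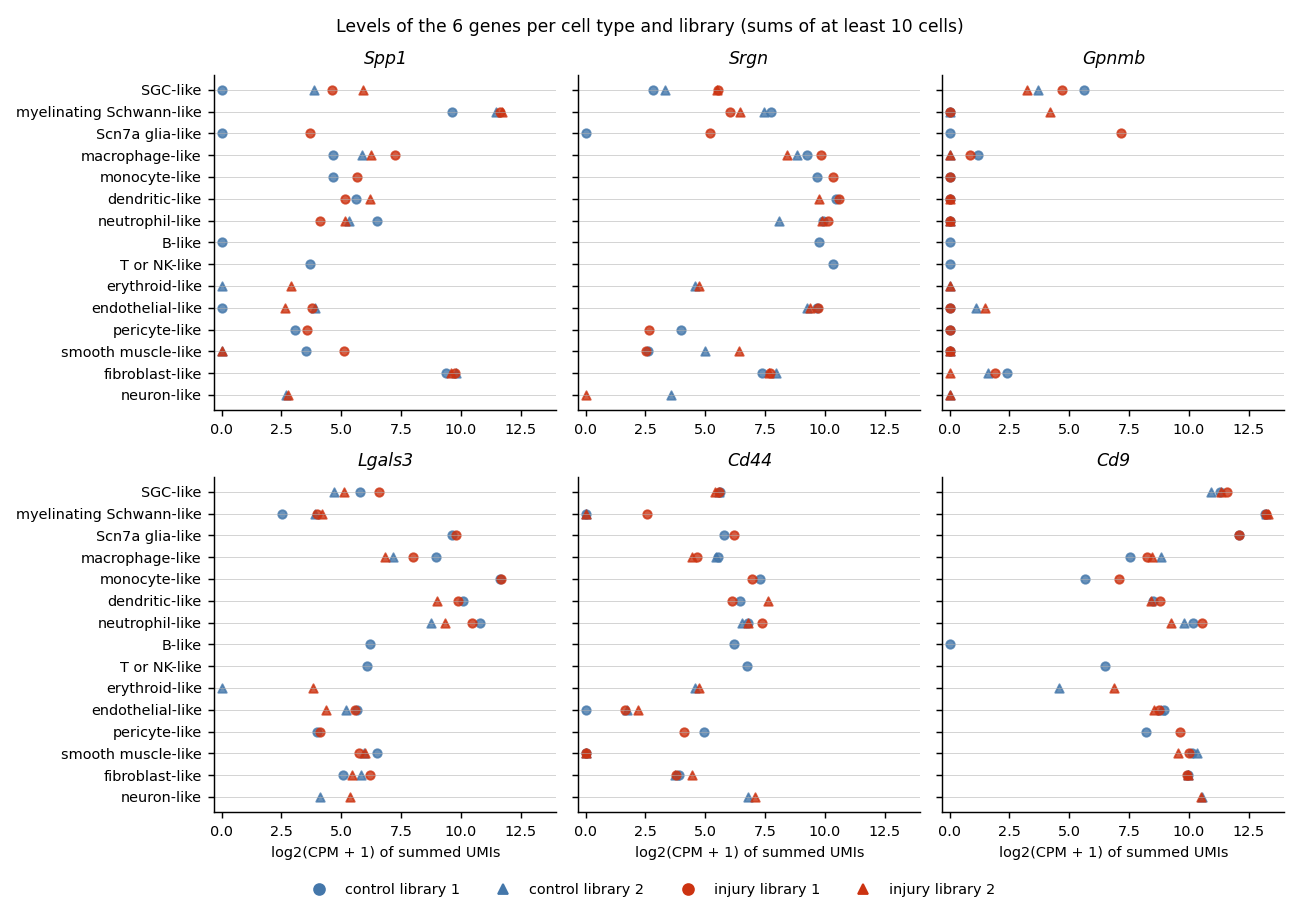
Level of each of the 6 genes as log2(CPM + 1) (x axis) by cell type (y axis), with 1 point per library holding at least 10 cells of the type; colours give the condition and shapes the library number. Spp1 and Cd9 are highest in myelinating Schwann-like cells, Srgn and Lgals3 in myeloid-like cells, and Gpnmb is close to 0 outside the glia.

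Serglycin levels were high in most blood-derived types and in the endothelium, but the gene was not confined to them. A Srgn UMI was read in 522 of 1241 fibroblast-like cells, and in 5 of 44 erythroid-like cells. Mean Srgn levels were 1267 CPM ± 347 (SD, n = 3) in dendritic-like, 1064 ± 346 (n = 2) in monocyte-like and 827 ± 379 (n = 4) in neutrophil-like cells. These ranges overlapped, and the T or NK-like cells of control library 1, the only library with 10 or more of them, held 1290 CPM. Endothelial-like cells measured 814 and 618 CPM in control and 849 and 657 CPM in injury. Macrophage-like cells measured 614 and 463 CPM in control and 909 and 340 CPM in injury. The ranges of endothelial-like and macrophage-like cells overlapped. Srgn was called higher in macrophage-like cells (log2 difference 2.93, SE 0.25, adjusted p = 1.42e-14, edgeR), where it was the only 1 of the 5 testable members called, beside 12.6% of all genes tested. It was called in endothelial-like cells as well (2.88, SE 0.25, adjusted p = 5.57e-14), again as the only 1 of the 5, beside 12.6% of all genes. In both types the call rested on the fold threshold and on the reference: against all other gated cells of the library the differences were 1.47 and 1.27, under the fold of 4, while 7.19% and 6.33% of all genes were called higher. In dendritic-like cells both Srgn (3.79, adjusted p = 4.66e-15) and Lgals3 (3.14, adjusted p = 5.46e-14) were called higher by edgeR than in the mean of the other types, as were 8.3% of all genes. These calls too were lost against all other gated cells, where the differences were 1.63 for Srgn and 1.92 for Lgals3, and so were the calls of Srgn in monocyte-like (1.09) and neutrophil-like cells (1.67).

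Galectin-3 was highest in monocyte-like cells. Its level there was 3201 CPM in control library 1 and 3259 CPM in injury library 1, the libraries with 10 or more such cells. Neutrophil-like cells followed at 1759 and 430 CPM in control and 1427 and 639 CPM in injury (1064 ± 632, n = 4), a range that did not reach the monocyte-like cells. Dendritic-like cells had a mean of 847 CPM ± 300 (n = 3). Lgals3 was called higher in monocyte-like cells (log2 difference 4.74, SE 0.24, adjusted p = 9.92e-22, edgeR, where 8.75% of all genes were called) and in neutrophil-like cells (4.21, SE 0.22, adjusted p = 3.35e-22, where 9.28% were). In Scn7a glia-like cells the gene measured 794 CPM in control library 1 and 880 CPM in injury library 1, and the difference from the other types was 2.38 (SE 0.32, adjusted p = 6.03e-08; 9.68% of all genes called). Against all other gated cells it was 1.22 (adjusted p = 0.00947, edgeR), under the fold of 4. In myelinating Schwann-like cells Lgals3 was lower, by 3.57 on the log2 scale (SE 0.58, adjusted p = 1.60e-06; 1.34% of all genes called lower).

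Macrophage-like cells were divided in their Lgals3. The gene measured 491 and 143 CPM in control and 257 and 112 CPM in injury, and 24 of the 990 cells held at least 50% of the UMIs. Cells with UMIs of at least 2 cell cycle genes were first set aside. In injury libraries 1 and 2 these were 56 and 40 cells, at 95.3 and 91.1 CPM of Lgals3. Cd163 and Mrc1 encode scavenger and mannose receptors of resident tissue macrophages. Of the remaining cells, those without a UMI of either measured 1376 and 302 CPM in control and 457 and 263 CPM in injury. Those with such a UMI measured 77.5 and 43.3 CPM in control and 209 and 93.1 CPM in injury. Among these remaining cells, the ones with neither receptor were therefore the higher in each library. Mrc1 is 1 of the markers that placed cells in this type. This split was made after seeing the data and was not tested.

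Gpnmb was the rarest member, with 198 UMIs in all filtered cells. In macrophage-like cells 3 of 990 cells held a UMI, or 0.303% (exact binomial 95% interval 0.0625% to 0.883%). No UMI was read in 73 monocyte-like cells, a count that leaves room for a share of 4.11%. SGC-like cells measured 48.6 and 12.1 CPM in control and 25.3 and 8.34 CPM in injury, from 8, 23, 53 and 11 UMIs. Too few sums held the gene for the contrast between types. Against all other gated cells of the same library, where the levels were 1.79 and 1.18 CPM in control and 5.29 and 0.814 CPM in injury, Gpnmb was called higher in SGC-like cells (log2 difference 2.96, SE 0.38, adjusted p = 9.59e-06, edgeR, with 5.35% of 12409 genes called higher). With low levels in the other cells, the gene became testable there through its SGC-like counts. The call therefore restates those levels and is no separate support for them. In Scn7a glia-like cells of injury library 1 there were 24 UMIs in 13 of 79 cells, or 145 CPM. The 24 such cells of control library 1 held none, where 3 counts would have been 82.1 CPM. Myelinating Schwann-like cells held 2 UMIs in a single cell.

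The hyaluronan receptor was low everywhere, and its order differed from that of the others. Cd44 averaged 140 CPM ± 21.6 (n = 2) in monocyte-like, 119 ± 31.3 (n = 4) in neutrophil-like and 116 ± 67.8 (n = 3) in dendritic-like cells, and 121 CPM (n = 2) in neuron-like cells, and these ranges overlapped. SGC-like cells measured 48.6 and 46.4 CPM in control and 46.8 and 41.7 CPM in injury. That is the narrowest spread of any member in these cells (45.9 ± 2.94, n = 4). Myelinating Schwann-like cells held 1 Cd44 UMI in 241 cells, and none was read in 158 smooth muscle-like cells, a count that leaves room for a share of 1.90%. Because the smooth muscle-like sums were at 0, the contrast of Cd44 with the mean of the other types depends on a prior count. Against all other gated cells of the library, the Cd44 log2 difference was 2.33 in neutrophil-like cells (4.65% of all genes called higher), 1.98 in monocyte-like cells and 0.76 in SGC-like cells.

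The transcript of the tetraspanin CD9 was highest in myelinating Schwann-like cells, but it was read in 65.9% to 85.5% of the filtered cells per library. Cd9 measured 9450 and 9516 CPM in control and 9709 and 10051 CPM in injury in myelinating Schwann-like cells (9681 ± 270, n = 4). Scn7a glia-like cells held 4408 CPM in control library 1 and 4399 CPM in injury library 1. SGC-like cells measured 2501 and 1958 CPM in control and 3073 and 2644 CPM in injury (2544 ± 460), and did not overlap the Scn7a glia-like cells. Against the mean of the other types, Cd9 was higher by 3.88 on the log2 scale in myelinating Schwann-like cells (SE 0.15, adjusted p = 7.76e-27) and by 2.21 in Scn7a glia-like cells (SE 0.24, adjusted p = 2.30e-10). The call in Scn7a glia-like cells was lost against all other gated cells (1.22, adjusted p = 0.0778, edgeR). It was also lost (1.55) without macrophage-like cells holding an SGC marker UMI and cells of other types holding a macrophage marker UMI. In SGC-like cells the difference of 1.82 (SE 0.17, adjusted p = 3.16e-13) stayed under the fold of 4. With macrophage-like cells (321 CPM ± 111, n = 4) and monocyte-like cells (91.2 CPM) near the bottom of its order, Cd9 was lower in macrophage-like cells than in the mean of the other types, by 1.09 (SE 0.22, adjusted p = 3.99e-05). In monocyte-like cells it was lower by 3.55 (SE 0.42, adjusted p = 2.35e-09; 2.46% of all genes called lower).

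Counted by cell type, 3 of the 5 testable members were called higher in each of monocyte-like, dendritic-like and neutrophil-like cells. Beside them stood 8.75%, 8.3% and 9.28% of all genes. Against all other gated cells these counts of members were 1, 0 and 2. In that comparison 226 of 10113, 234 of 10721 and 516 of 11095 genes were called higher. Against the mean of the other types, 2 of 5 were called higher in Scn7a glia-like cells, beside 9.68% of all genes. In myelinating Schwann-like cells it was 2 of 5 (Spp1 and Cd9), beside 11.2% of all genes. In fibroblast-like cells it was 1 of 5 (Spp1), beside 14.4% of all genes, and in SGC-like cells 0 of 5, beside 13% of all genes. DESeq2 called 0 higher in SGC-like cells as well, and 1 lower, where edgeR called 0 lower. Over all 7028 genes DESeq2 called 644 higher and 678 lower there, and edgeR 915 and 51. With no fold threshold 4 members passed as higher in macrophage-like cells (Spp1, Srgn, Lgals3 and Cd44; 33.4% of all genes), 2 in SGC-like cells (Cd44 and Cd9; 35.8% of all genes) and 2 in fibroblast-like cells (Spp1 and Srgn; 36.3% of all genes). Where Cd44 is counted, its contrast depends on a prior count, as stated above, so that these counts are uncertain by that member. Passing as lower at any fold were Cd9 in macrophage-like cells, Srgn (-1.97) and Lgals3 (-1.02) in SGC-like cells and Lgals3 (-0.93) in fibroblast-like cells. Beside them, 322, 612 and 406 of all 7028 genes passed as lower in these 3 types, in that order. In SGC-like cells 4 members were at an unadjusted p under 0.05 in edgeR, Cd44 and Cd9 as higher and Srgn and Lgals3 as lower. So were 3429 of all 7028 genes, so that this count does not set the members apart. The genes whose levels went most like a member over the 43 sums of 15 types, by Pearson's r on log2(CPM + 10), were Frzb (r = 0.86), Mfap5 (0.82) and Vit (0.80) for Spp1. For Srgn they were Arpc3 (0.86), Samhd1 (0.84) and Sp110 (0.83), and for Lgals3 they were Alox5ap (0.82), Plek (0.82) and Pirb (0.81). For Cd44 they were Unc119 (0.78), Hn1 (0.78) and Samsn1 (0.76), and for Cd9 they were Deb1 (0.91), Ldhb (0.84) and Cryab (0.83). No member was among the 3 genes most like another. The sums of a library share its preparation, and these correlations are a description.

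Genes that act with the members were read beside them. Some SEs were very large, such as 11.4 for Trem2 in SGC-like cells and 692 for Itgb3 and 7062 for Ptgfrn in monocyte-like cells. The folds of such genes between types, here and in the next paragraphs, may depend on a prior count, as that of Cd44 does. Of 16 testable genes of lipid-loaded phagocytes, 13 were called higher in macrophage-like cells, beside 12.6% of all genes. Their median log2 difference was 4.14, against 0.25 over all genes. Trem2, a lipid-sensing receptor, stood at 8.63, the growth factor Igf1 at 7.13 and the lysosomal protein Cd68 at 6.94. The low Gpnmb and modest Spp1 of these cells thus stood beside high levels of other genes of that list. In SGC-like cells 2 of the 16 were called higher, the lipid carrier Apoe (5.38) and the fatty acid binding protein Fabp5 (2.84). That is near the 13% of all genes called higher there. In the same cells 1 was lower, the adaptor Tyrobp (-2.41), beside 0.726% of all genes called lower. In myelinating Schwann-like cells none of the 16 was called higher by edgeR, beside 11.2% of all genes. Tyrobp (-2.51) and Axl (-2.24) were lower there, beside 1.34% of all genes.

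The receptors of osteopontin were distributed over several types. Shares of all genes called higher were 12.6% in macrophage-like, 13% in SGC-like, 14.4% in fibroblast-like and 11.2% in myelinating Schwann-like cells. Of 6 testable integrin genes, Itgb5 (log2 difference 5.67) and Itga4 (2.89) were called higher in macrophage-like cells. In SGC-like cells these were Itgb3 (3.82) and Itgav (2.45), the subunits of the αvβ3 integrin. In fibroblast-like cells 3 were called, Itgb5 (3.03), Itga8 (2.86) and Itgb3 (2.36), and in myelinating Schwann-like cells Itgb5 (3.32) alone. Among 6 testable genes of hyaluronan synthesis and CD44 partners, each of these types had 1 called higher. It was Cd74 (6.88), which forms a receptor complex with CD44, in macrophage-like cells, and the hyaluronan-binding proteoglycan Vcan (5.67) in fibroblast-like cells, where Cd74 was lower (-2.91; 0.498% of all genes called lower). It was Ezr, the ezrin gene, in SGC-like (2.32) and Schwann-like cells (2.01).

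Partners of CD9 and galectin-3 showed other patterns. Beside their counts stood 14.4% of all genes called higher in fibroblast-like, 13% in SGC-like, 11.2% in Schwann-like and 12.6% in macrophage-like cells. Of 7 CD9 partners 4 were called higher in fibroblast-like cells, led by Ptgfrn (3.85), Tspan4 (2.42) and Cd63 (2.31). In SGC-like cells Ptgfrn (5.23) and Cd63 (2.70) were called, in Schwann-like cells the tetraspanin Cd151 (2.50), and in macrophage-like cells Tspan4 (2.23). Of 5 galectin genes and partners, Lgals3bp (3.36) and Lgals9 (2.12) were called higher in macrophage-like cells. Lgals3bp (2.43) was called in fibroblast-like cells, and Lgals9 (-3.85) was lower in Schwann-like cells (1.34% of all genes called lower). The granule proteases bound by serglycin could be tested for 2 of 9 genes, Elane and Ctsg. Both were called higher in monocyte-like and neutrophil-like cells, beside 8.75% and 9.28% of all genes. Elane is itself a marker that placed neutrophil-like cells.

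The glial values after injury follow as a description, since these changes chose the genes. In SGC-like cells Srgn measured 6.07 and 8.96 CPM in control and 45.8 and 44.7 CPM in injury, a log2 ratio of the mean levels of 2.59, or 2.34 to 2.90 without 1 library. The control libraries held 1 of 54 and 14 of 401 cells with a UMI, and the injury libraries 58 of 527 and 36 of 247. The shares of 11% (exact 95% interval 8.46% to 14%) and 14.6% (10.4% to 19.6%) after injury lay above those of 1.85% (0.0469% to 9.89%) and 3.49% (1.92% to 5.79%) in control. The interval of control library 1 overlapped that of injury library 1 and lay below that of injury library 2. With every cell thinned to 1000 UMIs the shares were 0.556%, 0.730%, 2.76% and 3.61% in the same order. The thinned means were 0.00556 to 0.0392 UMIs per cell, well below 1 UMI. In pericyte-like cells of injury library 1, at a median depth of 1961 UMIs against 3339 UMIs in the SGC-like cells, 1 of 90 cells held a Srgn UMI. Other types of the injury libraries varied. Smooth muscle-like cells held one in 1 of 66 and 3 of 10 cells of injury libraries 1 and 2. Myelinating Schwann-like cells held one in 11 of 89 and 6 of 21. What part of the Srgn in SGC-like cells came from other cells was not tested.

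Macrophage transcripts in the SGC-like cells were measured beside these values. The macrophage markers summed to 30.3 and 37.9 CPM in control and 31.0 and 67.5 CPM in injury, which is 0.12%, 0.17%, 0.121% and 0.274% of their level in macrophage-like cells of the same library. At those ratios macrophage Srgn would give at most 1.10 CPM, but the gate itself limits macrophage markers in SGC-like cells. What part macrophage transcripts had in these values was not tested. The part that endothelial-like cells or other types rich in Srgn would give was not estimated. In SGC-like cells with no macrophage marker UMI, Srgn measured 6.85 and 8.77 CPM in control and 39.9 and 41.2 CPM in injury.

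Spp1 gave 0 and 13.7 CPM in the control SGC-like cells and 23.4 and 59.1 CPM in the injury ones (log2 ratio 2.59), from 0, 26, 49 and 78 UMIs. Control library 1 held 54 SGC-like cells, in which 3 counts would have been 18.2 CPM, more than the level of control library 2. Without that library the log2 ratio was 1.59, and without injury library 2 it was 1.77. The groups did not overlap, but the share of cells with a UMI was 6.48% in control library 2 (interval 4.28% to 9.36%) and 6.45% in injury library 1 (4.51% to 8.90%). Thinned, these shares were 1.49% and 1.56%. The endothelial-like cells of injury library 1, at a median depth of 3217 UMIs against 3339, held a Spp1 UMI in 4.92% of cells. Scn7a glia-like, pericyte-like and smooth muscle-like cells of that library held one in 1.27%, 2.22% and 9.09% of cells. What part of the share in SGC-like cells came from other cells was not tested. Injury library 2 stood apart, with 39 of 247 cells. Leaving out the cells with a macrophage marker gave 0, 14.6, 21.1 and 43.4 CPM.

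The remaining members showed smaller ratios in SGC-like cells. Cd9 was higher in both injury libraries (3073 and 2644 CPM) than in the control libraries (2501 and 1958 CPM), with a log2 ratio of 0.36. Lgals3 measured 54.6 and 24.8 CPM in control and 95.5 and 34.1 CPM in injury, and the groups overlapped. Gpnmb and Cd44 overlapped as well, with log2 ratios of -0.85 and -0.10. The ratio of Lgals3 (0.71) turned to -0.22 without injury library 1, and that of Gpnmb to 0.47 without control library 1.

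Myelinating Schwann-like cells, few in each second library (32 and 21 cells), differed in direction for Srgn. It was at 216 and 174 CPM in control and at 64.0 and 85.6 CPM in injury, from 45, 25, 13 and 10 UMIs. The log2 ratio was -1.38, and these levels did not overlap, injury being the lower. The shares of cells with a Srgn UMI did overlap, at 25.3% and 34.4% in control and 12.4% and 28.6% in injury. Without the cells holding a macrophage marker the values were 230 and 139 CPM in control and 68.5 and 122 CPM in injury. Spp1 was higher in both injury libraries (log2 ratio 0.84), although control library 2 (2866 CPM) lay nearer to the injury libraries than to control library 1 (793 CPM). The ratio was 0.19 without control library 1 and 2.04 without control library 2. The share of cells with a Spp1 UMI went with the library number rather than with injury, at 22.2% and 37.1% in the first libraries of control and injury and 78.1% and 76.2% in the second ones. Thinning left that order, at 17.6%, 30.8%, 63.6% and 59.7%. Cd9 had a log2 ratio of 0.06. Lgals3 stood between 4.81 and 17.1 CPM in the 4 libraries, from 1 to 3 UMIs each.

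**Figure D3:**
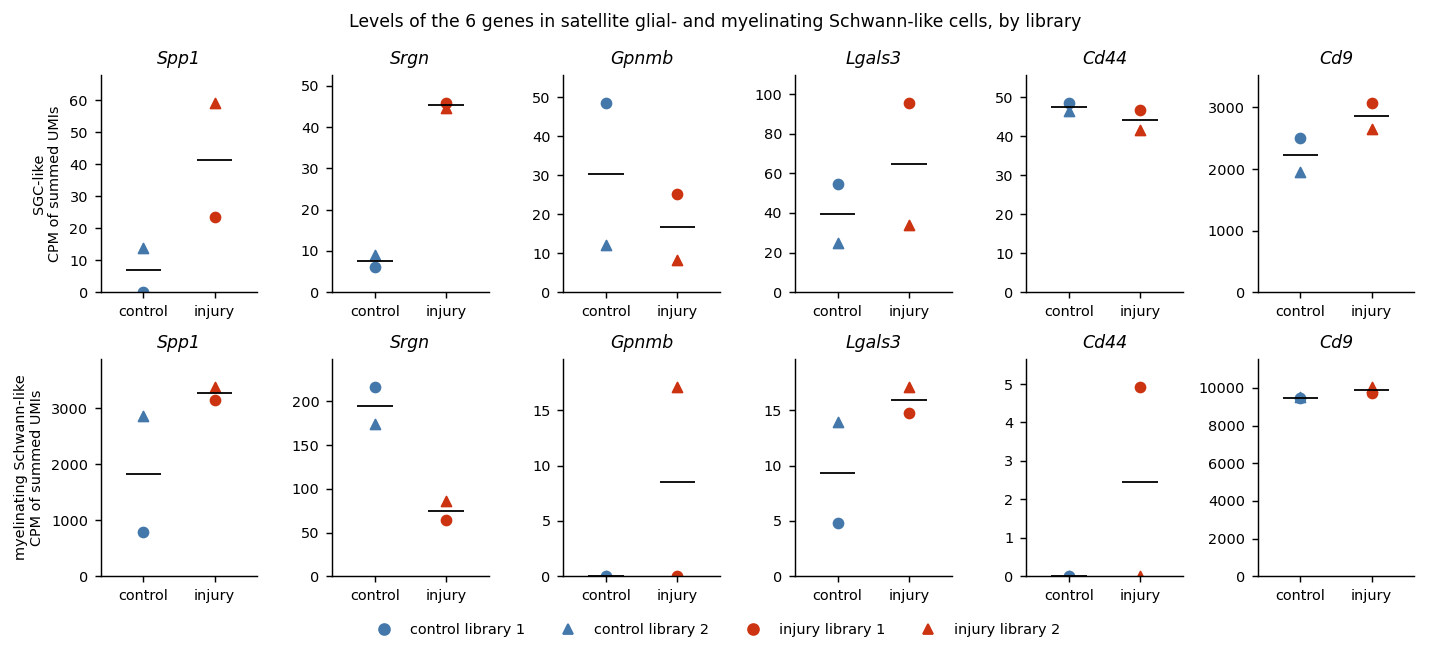
Level of each of the 6 genes (CPM) in SGC-like and myelinating Schwann-like cells of the 4 libraries, with 1 point per library, a line at the mean of each condition and a y axis of its own in each panel. Srgn is higher in both injury libraries in SGC-like cells (45.8 and 44.7 CPM against 6.07 and 8.96) and lower in both in Schwann-like cells.

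Outside the glia the effect of injury could be tested, as the choice of the genes did not use it. In macrophage-like cells edgeR called 0 of the 5 testable members. It called no gene at all of 6941, that is 0% in either direction, with 576 genes at an unadjusted p under 0.05, and DESeq2 called 11. Spp1 was the member with the largest difference: both injury libraries (150 and 75.4 CPM) were above both control libraries (24.0 and 57.8 CPM), at a log2 difference of 1.54 (SE 0.53, unadjusted p = 0.0254, adjusted p = 0.529, edgeR). Its adjusted p ranged from 0.000167 to 1.00 over the alternatives, and it was called only without control library 2, where the difference was 2.08. The share of macrophage-like cells with a Spp1 UMI was 4.51% and 6.94% in control and 27.3% and 21.1% in injury, and 2.17%, 3.91%, 9.55% and 5.53% after thinning, the median depths being 2894, 3164, 4703 and 4894 UMIs.

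The other members were not called in macrophage-like cells. Cd44 was lower in both injury libraries (24.4 and 20.7 CPM) than in the control libraries (45.4 and 42.4 CPM), at -1.10 (SE 0.32, unadjusted p = 0.0121, adjusted p = 0.478, edgeR). Lgals3 stood at -0.95 (SE 0.65, adjusted p = 0.736, edgeR), with a range of 0.00329 to 1.00 for its adjusted p over the alternatives. The difference turned to 0.35 without control library 1 and was -0.42 without injury library 2, -1.80 (adjusted p = 0.672) without injury library 1, and -1.56 (adjusted p = 0.00329, edgeR) without control library 2, under the fold of 4. Srgn (0.09) and Cd9 (-0.07) both had an adjusted p of 0.998.

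In fibroblast-like cells none of the 5 testable members was called by edgeR, which called 2 of 8975 genes higher (0.0223%), with 172 at an unadjusted p under 0.05, and DESeq2 called 8. Spp1 differed by 0.15 (SE 0.25, adjusted p = 1.00). Without the single barcode of control library 2 the difference was 0.88 (SE 0.45, unadjusted p = 0.0929, adjusted p = 1.00), so that 1 barcode moved the estimate. In endothelial-like cells edgeR called 0 of 6013 genes (0%) and so none of the 3 testable members, with 99 genes at an unadjusted p under 0.05 and 0 called by DESeq2. Srgn differed there by 0.17, Lgals3 by -0.22 and Cd9 by -0.16 on the log2 scale. The difference between fibroblast-like and macrophage-like cells in the Spp1 response was -1.36 (SE 0.40, adjusted p = 0.638 in an edgeR interaction over 10140 genes). None of the listed partner genes was called for injury in these 3 types by edgeR.

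Neurons gave the 1 member called for injury. Sensory neurons are large and RNA-rich, and the upper limits on cells removed most of them, leaving 5 neuron-like cells in each first library. Without the upper limits, a choice made after seeing the data, there were 21 and 151 neuron-like barcodes in control and 30 and 69 in injury, with median depths of 18381 to 31263 UMIs. Lgals3 measured 56.1 and 47.7 CPM in control and 508 and 241 CPM in injury. It was seen in 5 of 21 and 26 of 151 control barcodes and in 15 of 30 and 31 of 69 injury barcodes. The log2 difference was 3.03 (SE 0.40, adjusted p = 0.0495, edgeR), beside 0.205% of 9753 genes called higher. The adjusted p ranged from 4.44e-20 to 0.282 over the alternatives, and the call was lost without control library 1 (0.252) or without control library 2 (0.282).

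Other cells' transcripts were read in these barcodes too. Macrophage markers stood at 0.271% and 0.0806% of their level in macrophage-like cells in control and at 0.399% and 0.264% in injury. In barcodes with no UMI of a macrophage or monocyte marker, Lgals3 was seen in 0 of 4 and 13 of 105 control barcodes and in 3 of 13 and 0 of 13 injury barcodes, so that injury library 2 showed none in the barcodes without such markers. Their part in the result was not tested. In barcodes with a UMI of Atf3, a transcription factor induced in injured neurons, Lgals3 measured 60.9 and 36.8 CPM in control and 536 and 330 CPM in injury. In those without, it measured 16.4 and 55.7 CPM in control and 0 and 143 CPM in injury.

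The other members did not pass the test in these barcodes. Cd9 measured 1589 and 1793 CPM in control and 631 and 1725 CPM in injury, a log2 difference of -0.38 (adjusted p = 0.805, edgeR). It was -1.24 (adjusted p = 0.00088, the lowest of a range up to 1.00) without injury library 2 and 0.16 without injury library 1, under the fold of 4. Srgn differed by 0.49, with an adjusted p of 0.70 to 1.00 over the alternatives. Cd44 measured 142 and 158 CPM in control and 303 and 200 CPM in injury, a log2 difference of 0.90 (adjusted p = 0.324, edgeR). Its adjusted p ranged from 0.00282 to 0.921 over the alternatives, under the fold of 4 in each. Spp1 was at 12.3 and 2.75 CPM in control and at 9.31 and 262 CPM in injury (log2 difference 4.96, SE 1.45, adjusted p = 0.298, range 0.00162 to 0.807), and passed without injury library 1, where it was 5.89. In injury library 2 a single barcode with 516 of the 605 Spp1 UMIs also held 334 UMIs of Pvalb, parvalbumin, a marker of proprioceptors.

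**Figure D4:**
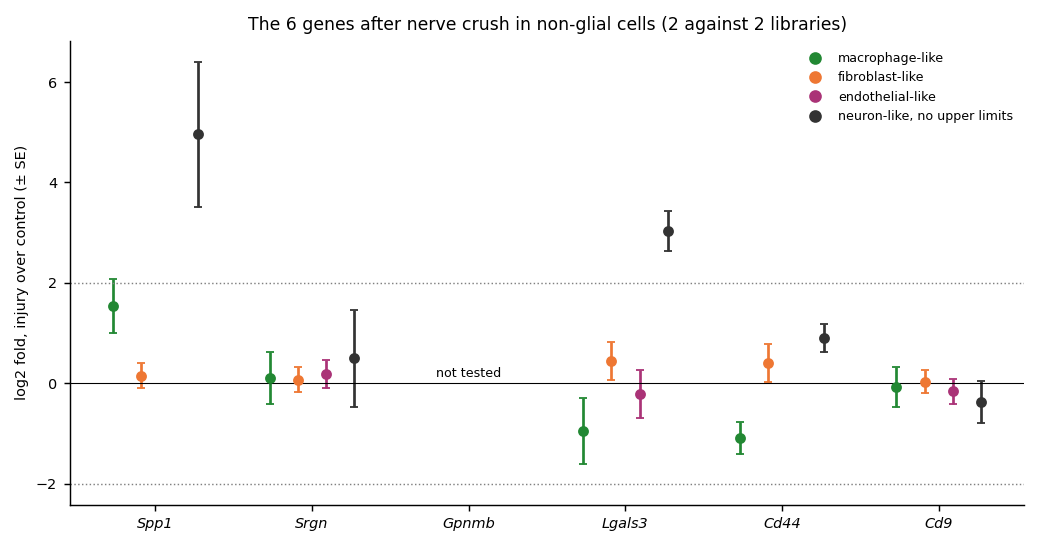
Injury minus control difference (log2, y axis) of the testable members (x axis) in macrophage-like, fibroblast-like and endothelial-like cells and in neuron-like barcodes without the upper limits. Bars give 1 SE derived from the edgeR F statistic, and dotted lines the fold of 4. Gpnmb was not tested. Lgals3 in neuron-like barcodes, at 3.03 with a short bar, passed the adjusted threshold, whereas Spp1 there, at 4.96, had an SE of 1.45 and did not.

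**Figure D5:**
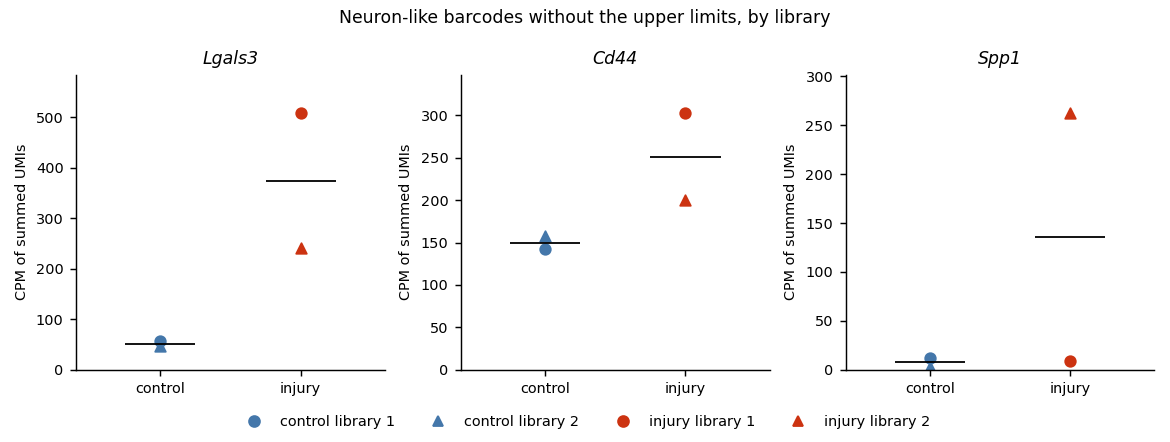
Level of Lgals3, Cd44 and Spp1 (CPM) in neuron-like barcodes of each library without the upper limits on UMIs and genes, with 1 point per library and a line at the mean of each condition. Lgals3 is higher in both injury libraries (508 and 241 CPM) than in both control libraries (56.1 and 47.7 CPM), whereas high Spp1 is seen in injury library 2 alone.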

How the data were processed

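Raw UMI counts per gene and barcode were used as deposited by the authors in 4 matrices; the submitters' processing notes name Cell Ranger, Partek and mm10. The 6 genes and all gene lists were chosen with earlier results of these data known. Barcodes with 600 to 15000 UMIs, 500 to 4000 genes and under 10% mitochondrial UMIs were kept, as in the methods; this left 6095, fewer than the study counted. A barcode was placed in a type with at least 3 of its markers and a lead of 1.5 times over the next type. Scrublet marked 37 barcodes (0.530%), which were kept. Counts were summed per library and type and tested with edgeR 4.0.16 (TMM, filterByExpr, quasi-likelihood, Benjamini-Hochberg over all genes), checked first on simulated counts. The contrast between types had the library as a block and took sums of at least 10 cells in at least 2 libraries (13 types). The injury contrast was unpaired, with 2 libraries against 2. The SE of an edgeR difference was derived as its absolute size over the square root of its F statistic. DESeq2 1.42.0 was an alternative. The series states biological replicates; the labels number only the second library of each condition. Named genes were the 6 members, the 3 genes most like each, and up to 3 called genes per list with the largest fold. Mast, B, T or NK, erythroid, pericyte and perineurial gates served the type contrast or were too small to test.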

Additional observations from a re-analysis of the deposited data

Results flagged for a closer look

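For several members the CPM levels of control and injury libraries did not overlap in either of 2 cell types, with opposite directions in the 2. None of these differences was tested. Each direction rests on 2 libraries against 2 that did not overlap. The share of all genes that separate in this way was not computed. With so few libraries groups often separate without any effect, and the glial values among these cases chose the genes. Srgn was higher after injury in SGC-like and lower in myelinating Schwann-like cells, a difference of 3.97 between the log2 ratios of injury to control mean CPM. By share of cells with a Srgn UMI, control and injury overlapped in the Schwann-like cells. Spp1 was lower after injury in neutrophil-like cells (88.7 and 39.1 CPM in control, 16.4 and 34.4 CPM in injury, from 12, 3, 1 and 5 UMIs) and higher in 3 other types. In the neutrophil-like cells of injury library 1, 3 counts would have been 49.2 CPM, more than the level of control library 2. The differences from the neutrophil-like ratio were 3.92 in SGC-like, 2.17 in myelinating Schwann-like and 2.79 in macrophage-like cells.

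By CPM, Cd9 was higher after injury in SGC-like and myelinating Schwann-like cells and lower in endothelial-like, smooth muscle-like and fibroblast-like cells. Between SGC-like cells and these 3 types the log2 ratios differed by 0.62, 0.78 and 0.40. Between myelinating Schwann-like cells and the same types they differed by 0.32, 0.48 and 0.10. The smaller of these are differences of a few percent in level. In fibroblast-like cells the log2 ratio of mean CPM was -0.04. The fitted injury differences of Cd9 there ranged from -0.02 to 0.11 over 13 settings, so that the fits showed no decrease.

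Lgals3 was read in the barcodes outside the limits on cells. Their levels were 66.6 and 37.9 CPM in 83 and 447 control barcodes and 397 and 214 CPM in 132 and 218 injury barcodes, so that the lowest injury value of 214 CPM lay above both control values. Of these UMIs, 590 of 804 in injury library 1 and 561 of 784 in injury library 2 lay in neuron-like barcodes, so that these values are not separate from the comparison of neuron-like barcodes without upper limits.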

How the results depend on the processing

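Of the members 5 could be tested in the types named here, and 6 against all other gated cells or with no filter on low counts, where Gpnmb became testable. The count called higher changed from 1 in macrophage-like cells to 4 with no fold threshold, to 0 against all other gated cells, and to 2 without cells holding UMIs of other markers. That last setting left out only macrophage-like cells with an SGC marker UMI and cells of other types with a macrophage marker UMI. Leaving out 1 library gave 1 to 2, with 2 without injury library 1. In SGC-like cells 0 became 2 with no fold threshold, and 1 against all other gated cells (Gpnmb), without cells holding UMIs of other markers (Cd44), and with no filter on low counts (Gpnmb). The Cd44 contrast with the mean of the other types depends on a prior count. The count called lower in SGC-like cells was 0 in the main setting, where 51 of 7028 genes were called lower. It was 2 against all other gated cells, where 2059 of 12409 genes were. It was 1 with DESeq2 (678 of 7028 genes called lower), all deposited barcodes (86 of 7784), doublets removed (55 of 6978) or no replicate block (53 of 7028). It was also 1 without cells holding UMIs of other markers and without any 1 library. In fibroblast-like cells the count called higher went from 1 to 2 with no fold threshold, and in endothelial-like cells from 1 to 0 against all other gated cells. For injury in macrophage-like cells 0 became 1 without control library 2 (Spp1), with a range of 0 to 1 over the libraries left out. None of the differences called higher reversed. Differences not called against the mean of the other types turned negative against all other gated cells: Spp1 in macrophage-like (-1.99) and monocyte-like cells (-3.17), Srgn in myelinating Schwann-like (-1.51) and fibroblast-like cells (-0.82), and Cd9 in fibroblast-like cells (-0.64). Uncalled injury differences in macrophage-like cells crossed 0 as well, from -1.80 to 0.35 for Lgals3, -0.92 to 0.69 for Srgn and -0.56 to 0.61 for Cd9. Of 107 counts of members 96 stayed equal or within a ratio of 1.5. Of 178 injury differences 173 kept their status as called or not called, as did 420 of 456 differences between types, with 13 losing and 18 gaining a call. That status ignores the size of a difference, so that uncalled injury differences that crossed 0 are among those kept.

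Numbers shared between conditions do not establish a pairing, and with 2 pairs it was checked only by the correlation of deviations (0.378 in macrophage-like, 0.407 in fibroblast-like and 0.225 in endothelial-like cells). With the replicate number as a block, 30 genes were called higher and 32 lower in macrophage-like cells, 6 and 1 in fibroblast-like cells, and 0 in endothelial-like cells; the members called stayed at 0 in each, with Spp1 in macrophage-like cells at an adjusted p of 0.0683 (range 0.000167 to 1.00 over the alternatives). In neuron-like barcodes without upper limits the block gave 89 and 5 genes, against 20 and 0, and kept Lgals3 (adjusted p = 3.06e-05) while Spp1 passed (0.00948).

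Other counts of genes moved as well: in macrophage-like cells 0 became 15 with no filter on low counts, 11 with DESeq2 and 7 to 181 without 1 library; in fibroblast-like cells 2 became 23, 8 and 0 to 48, 1 with all deposited barcodes, and 0 without cells holding UMIs of other markers; in endothelial-like cells 0 became 7, 0 and 0 to 27; in neuron-like barcodes 20 became 64 with DESeq2 and 0 to 253 without 1 library. With 1 library left in an arm, that library is assumed to vary like the other arm. Injury in neutrophil-like (1064 genes tested) and smooth muscle-like cells (2000), added after seeing the data, gave 0 calls with edgeR and DESeq2, with 3 and 35 genes at an unadjusted p under 0.05 in edgeR. Depth limited Gpnmb and Cd44, read at few UMIs in most types.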

Other observations

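Fibroblast-like cells with a UMI of Pi16 or Dpp4, markers of adventitial and epineurial fibroblasts, held less Spp1 than the others in every library. They measured 91.7 and 73.0 CPM in control and 491 and 558 CPM in injury, with 16.3%, 16.0%, 30.4% and 38.2% of cells holding a UMI. The remaining fibroblast-like cells, without the single Spp1-rich barcode, measured 787 and 311 CPM in control and 950 and 822 CPM in injury. The split was made after seeing the data and was not tested.

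In macrophage-like cells of injury library 1, the 56 cells with UMIs of at least 2 cell cycle genes measured 239 CPM of Spp1 at a median depth of 7994 UMIs, and in injury library 2 the 40 such cells measured 76.0 CPM at 6455 UMIs. Lgals3 and Cd44 were read together in macrophage-like cells: 31.1% and 40% of Lgals3-positive cells in control and 20% and 17.6% in injury held a Cd44 UMI, against 3.52%, 5.26%, 6.27% and 8.75% of Lgals3-negative cells, and the positive cells were the deeper ones in each library. These are values with no test.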
